A study of Homo sapiens with 40 samples.

Results

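The subject was the 45 mRNAs of cytosolic large subunit ribosomal proteins, RPL3 to RPLP2, taken from the 55765 gene rows of each count file by their symbols. No measured value entered that rule, though the set was chosen with earlier results of these data known. Every member was counted in all libraries and passed the filter on low counts in each of the 13 comparisons. The rows lay on 18 chromosomes of GRCh37, and their coding sequences ran from 75 nt (RPL41, 25 codons) to 1281 nt (RPL4), with a median of 471 nt against 1251 nt over 20274 coding genes.

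The large subunit of the ribosome joins amino acids at its peptidyl transferase centre, lets the new chain leave through an exit tunnel, and calls translation factors through its P stalk, and its proteins are made in matched amounts. The mRNAs of vertebrate ribosomal proteins begin with a C followed by a run of pyrimidines, the 5′ terminal oligopyrimidine (TOP) motif, which lets growth signals decide whether they sit on polysomes or are stored as untranslated mRNA. eIF4A1 is the RNA helicase of the eIF4F cap-binding complex, eIF4A2 is its close paralogue, DDX6 is a helicase of mRNA decay and P-bodies, CNOT1 is the scaffold of the Ccr4-Not deadenylase, and TNRC6A and TNRC6B link Argonaute proteins to it.

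All 40 libraries came from HEK293, an established human embryonic kidney cell line, and formed 12 groups. In the RNA immunoprecipitation (RIP) experiment, RNA recovered with an antibody to endogenous eIF4A1, eIF4A2 or DDX6 (3 IP libraries each) stood beside 3 total RNA libraries of cells without siRNA. In the gradient experiment, cells given a control siRNA or an siRNA to CNOT1 were sampled as input RNA, as the subpolysomal pool (gradient fractions 1 to 5) and as the polysomal pool (fractions 6 to 11), with 4 libraries in each of these 6 groups. Total RNA of cells given a control siRNA or siRNAs to both TNRC6A and TNRC6B gave 2 libraries a group. The sources do not say whether replicates were separate cultures, so the tests speak to the spread between libraries, and all libraries were of 1 cell line.

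Gene counts summed to between 15353317 and 46018900 a library. VIM, NEFM, KRT8 and KRT18, which HEK293 cells express, were detected throughout, PAX2 stayed at or below 1.59 CPM (counts-per-million, the unit of all levels here, TMM-scaled for the members), and ALB, PTPRC and CD3E did not pass 0.4. CNOT1 opposed the label of 2 libraries: it stood at 27.4 CPM in polysomal replicate 3 labelled control siRNA, where the other 3 had 447 to 469, and at 590 in polysomal replicate 3 labelled CNOT1 siRNA, where the others had 22.9 to 31.5. Counts of called members, their medians, the roles and the length classes that rest on polysomal libraries are therefore given with these 2 and without them, other values rest on all libraries unless stated, and labels were kept as deposited.

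Sequence windows around the annotated start show the TOP-like runs that most members share. RefSeq start windows (GRCh38.p14) were matched for 38 of the 45 members, and at least 1 of the motifs CTTTC or CTCTT or CTTTT or CCTTT, which overlap one another, lay between 5 bases before and 12 bases after the start on the gene strand in 27 of them (71.1%), against 8.8% of 27305 genes. On the opposite strand the same motifs were in 0 of the 38 and in 5.7% of all genes. The 10 windows below run from 10 bases before to 20 after the start, with the matches in capitals. They were chosen, with values known, among the members described below: 7 with a match and 3 (RPL3, RPL4, RPL17) of the 11 without one.
RPLP2 (chr11:809957-809986, +): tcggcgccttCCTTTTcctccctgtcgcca
RPL13A (chr19:49487598-49487627, +): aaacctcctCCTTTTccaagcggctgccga
RPL7A (chr9:133348208-133348237, +): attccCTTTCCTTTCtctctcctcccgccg
RPL18 (chr19:48619159-48619188, -): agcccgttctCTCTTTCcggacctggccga
RPL41 (chr12:56116623-56116652, +): cttcgCCTTTCtctcggccttagcgccatt
RPL36A (chrX:101391001-101391030, +): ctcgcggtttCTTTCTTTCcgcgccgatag
RPL29 (chr3:51995876-51995905, -): cagccCCTTTCTCTTccggttctaggcgct
RPL3 (chr22:39319604-39319633, -): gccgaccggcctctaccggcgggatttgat
RPL4 (chr15:66504836-66504865, -): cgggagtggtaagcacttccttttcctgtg
RPL17 (chr18:49492446-49492475, -): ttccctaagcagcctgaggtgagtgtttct
RPL36A and RPL41, which stood furthest from the other members in the gradients, held such a run, as 27 of the 38 did, and RPL4 has one further from the annotated start than the searched stretch. The 27 members with a match and the 11 without one had like medians in most comparisons, for example log2 differences of -0.60 and -0.55 after CNOT1 siRNA in the input and of -1.39 and -1.67 in the eIF4A2 IP against total RNA. A match depends on where the start is annotated, and members without one may still begin with a TOP motif. The split therefore cannot show whether the motif bears on the values.

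The members took up very different shares of the counts between pools. Their summed share was 4.81% ± 0.61 (SD, n = 3) in RIP total RNA, 3.13% ± 0.62 in the eIF4A1 IP, 2.12% ± 0.20 in the eIF4A2 IP and 4.5% ± 0.95 in the DDX6 IP. In control siRNA cells it was 4.5% ± 0.15 (SD, n = 4) in the input, 10.95% ± 0.93 in the subpolysomal pool and 4.00% ± 0.82 in the polysomal pool. After CNOT1 siRNA the same pools held 3.20% ± 0.12, 6.52% ± 0.31 and 3.64% ± 0.30. The input and the subpolysomal groups did not overlap between the siRNAs, while the polysomal ones did, and the lowest control value of 2.77% was that of replicate 3, whose CNOT1 count opposed its label.

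**Figure D1:**
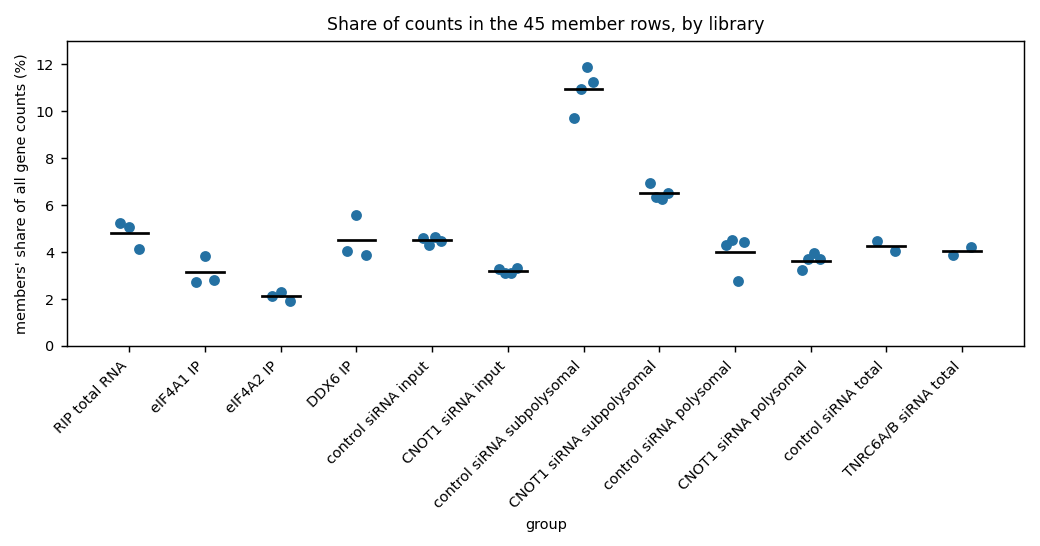
Share of all gene counts in the 45 member rows, in percent, for each library (points) by group, with the group mean as a bar. The 4 control siRNA subpolysomal libraries lie between 9.69% and 11.89%, above every other library.

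Most members were lower in the eIF4A1 IP than in total RNA, and none was higher. By edgeR's quasi-likelihood test with Benjamini-Hochberg adjustment, 32 of 45 were called lower and 0 higher at a false discovery rate (FDR) below 0.05, where 26.5% of the 17474 genes tested were lower and 26.1% higher. The median log2 difference of the members was -0.84, against 0.04 over all genes. DESeq2 called 34 lower and 0 higher, and no member was higher at an unadjusted p below 0.05. Members at the rim of the exit tunnel (RPL19, RPL23A, RPL26, RPL31, RPL35) had the lowest median of the groups by role, -1.34 with 4 of 5 called. Those near the peptidyl transferase centre (RPL3, RPL8, RPL10) had the highest, -0.5 with 3 of 3 called. The P stalk proteins RPLP0, RPLP1 and RPLP2 and RPL12 at its base had -0.61 with 1 of 4 called, RPLP0. With the replicate number as a block, since same-numbered RIP libraries deviated together, 41 of 45 were lower and 0 higher (32% and 32.4% of all genes), with 5 of 5 at the rim and 4 of 4 of the P stalk group.

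RPL29, a protein of the subunit surface that also binds heparin, was the lowest member in the eIF4A1 IP after RPL36A. It stood at 1240, 1300 and 868 CPM in total RNA and at 195, 409 and 207 in the IP, and the groups did not overlap. Its log2 difference was -2.07 ± 0.36 (SE; edgeR FDR 0.000349). The 2 highest members did not differ beyond their spread: RPL41 stood at 1720, 1690 and 998 CPM in total RNA and at 1330, 2070 and 1350 in the IP (log2 difference 0.11 ± 0.28, edgeR FDR 0.752), and RPL37A at 1180, 1210 and 849 against 963, 1420 and 923 (0.03 ± 0.24, edgeR FDR 0.927). The IP and total RNA libraries overlapped in both genes, and both signs turned without total RNA replicate 3 (RPL41 -0.10, RPL37A -0.12) or without eIF4A1 IP replicate 2 (-0.13 and -0.20).

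In the eIF4A2 IP the members were lower still. The edgeR test called 42 of 45 lower than total RNA and 0 higher, where 25.8% of all genes were lower and 24.5% higher, and the median log2 difference was -1.53 against 0.01 over all genes. DESeq2 gave the same counts of 42 and 0, and 0 were higher at an unadjusted p below 0.05. RPL29 was again lowest, at 167, 182 and 86.1 CPM in this IP and a log2 difference of -2.97 ± 0.37 (edgeR FDR 2.84e-05). RPL19, which lies near the tunnel exit, followed, with 1780, 1820 and 1240 CPM in total RNA and 290, 393 and 168 in the IP (-2.51 ± 0.34, edgeR FDR 5.2e-05). In each of these genes every IP library lay below every total RNA library. The 3 members not called were RPL36A, RPL41 (962, 1340 and 1190 CPM in the IP, log2 difference -0.34 ± 0.28) and RPL17.

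RPL17, which lines the exit tunnel, was the member nearest to no difference in the eIF4A2 IP, on few counts. It stood at 21.9, 21.1 and 17.4 CPM in total RNA and at 16.7, 19.9 and 19.7 in the IP, groups that overlapped (log2 difference -0.10 ± 0.25, edgeR FDR 0.754). Its row had between 110 and 1244 counts a library. In GENCODE v44 on GRCh37, 32.9% of its exon bases are shared on the same strand with other genes, among them the readthrough gene RPL17-C18orf32, whose row was at 0 in all 40 libraries. Reads of shared bases may have been left uncounted, so the RPL17 values are uncertain.

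The DDX6 IP differed least from total RNA. Of the 45 members, 8 were called lower (RPL8, RPL4, RPL19, RPL24, RPL6, RPL14, RPL29 and RPL36A) and 0 higher by edgeR, a share of the members below that of all genes, of which 23.3% were lower and 22.7% higher. The median log2 difference was -0.21. With the replicate block 20 members were lower and 3 higher (RPL41, RPL34 and RPL37A), where 30.4% of all genes were lower and 29.6% higher. RPL29 stood at 449, 520 and 253 CPM in this IP (-1.48 ± 0.35, edgeR FDR 0.00409), below all total RNA libraries. RPL37A, a zinc-binding protein of the subunit, stood at 1390, 2210 and 1290 CPM, above all total RNA libraries, with a log2 difference of 0.59 ± 0.24 and an edgeR FDR of 0.0565, or 0.00386 with the block. RPL41 stood at 1650, 3000 and 1840 CPM, which overlapped total RNA (0.56 ± 0.28, edgeR FDR 0.112, or 0.0283 with the block).

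The count of members lower in the DDX6 IP moved with single libraries. It was 5 without total RNA replicate 2, DDX6 IP replicate 1 or DDX6 IP replicate 3, 14 without total RNA replicate 3 and 16 without DDX6 IP replicate 2. The share of all genes called was not counted in these fits. A change in the members therefore cannot be told from a change over all genes. The median was -0.45 without DDX6 IP replicate 2 and -0.38 without total RNA replicate 3, and between -0.12 and -0.09 without any of the other 4 libraries. DESeq2 called 12 lower and 1 higher (25% and 23.2% of all genes), and at an unadjusted p below 0.05 the counts were 14 and 1 (27.2% and 26.6%).

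RPL36A departed from the other members in the IPs. It stood at 37.1, 40.5 and 67.1 CPM in total RNA, at 4.21, 3.97 and 3.97 in the eIF4A1 IP, at 20.2, 21.5 and 47.5 in the eIF4A2 IP and at 5.57, 6.03 and 8.28 in the DDX6 IP. The eIF4A1 and DDX6 IPs lay far below total RNA and the eIF4A2 IP, of which replicate 3 overlapped total RNA. Against total RNA the log2 difference was -3.57 ± 0.34 for eIF4A1 (edgeR FDR 4.03e-06), the lowest of all members, -2.86 ± 0.33 for DDX6 (edgeR FDR 3.24e-05), also the lowest, and -0.69 ± 0.30 for eIF4A2 (edgeR FDR 0.0731). The last value was called with the replicate block (-0.74, FDR 0.00268) and without eIF4A2 IP replicate 3 (-1.21, FDR 0.00138).

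RPL36AL, the autosomal paralogue of RPL36A, did not share this pattern. It stood at 139, 150 and 101 CPM in total RNA, at 59.9, 98.2 and 65.3 in the eIF4A1 IP, at 45.6, 56.1 and 35.5 in the eIF4A2 IP and at 87.2, 129 and 78.3 in the DDX6 IP. Its log2 differences from total RNA were -0.81 ± 0.25, -1.51 ± 0.25 and -0.41 ± 0.25, in the range of the members as a whole. RPL36A lies at chrX:100645812-100651143 (GRCh37, plus strand). Of its 3965 annotated exon bases, 8.4% are shared with the readthrough gene RPL36A-HNRNPH2, whose row was at 0 in all 40 libraries. Here too reads of shared bases may have been left uncounted. Its main annotated mRNA has only 761 nt, so the uncounted part of that mRNA may be larger than 8.4%. The RPL36A levels are therefore uncertain. The same holds for the differences drawn from them in the IPs and the gradients, which may not stand for the coding mRNA. The 18 RPL36A pseudogene symbols in the files held 1.8% as many counts as RPL36A in the control siRNA input.

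**Figure D2:**
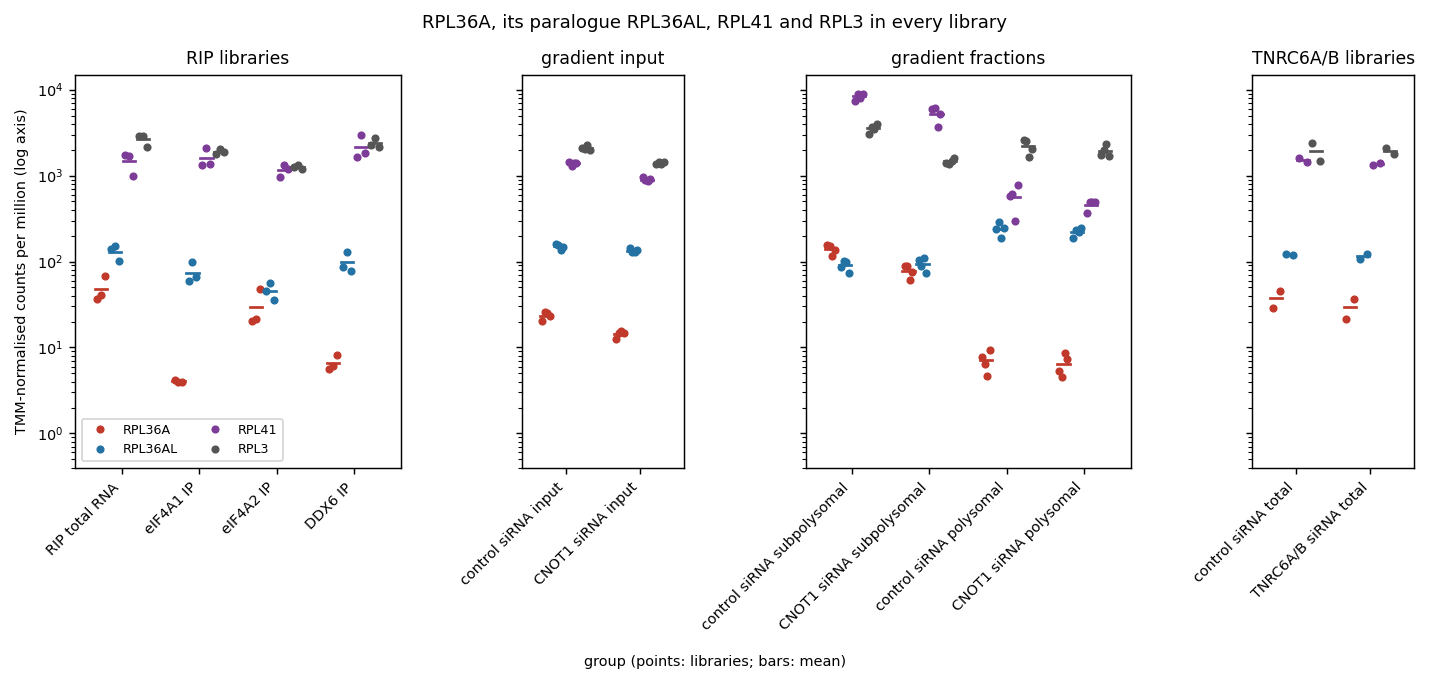
TMM-normalised CPM (log axis) of RPL36A, RPL36AL, RPL41 and RPL3 in every library (points) with group means (bars), in 4 panels that were normalised separately. RPL36A sits near 4 in the eIF4A1 IP and between 20.2 and 47.5 in the eIF4A2 IP, and both RPL36A and RPL41 are highest in the subpolysomal pool, while RPL36AL is highest in the polysomal pool.

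Set directly against each other, the IPs recovered the members in the order DDX6, eIF4A1, eIF4A2, and calls between neighbours in that order depended on the fit. Against the DDX6 IP, the eIF4A2 IP had 43 members lower (11.3% of all genes) and 1 higher (9.82%), with a median log2 difference of -1.35. RPL27A, a protein of the subunit body, was lowest, at 446, 536 and 391 CPM in the eIF4A2 IP and 1150, 1960 and 1170 in the DDX6 IP (-1.64 ± 0.25, edgeR FDR 0.00225). RPL18, another body protein, stood at 233, 229 and 222 against 657, 892 and 541 CPM (-1.61 ± 0.24, edgeR FDR 0.00225). The groups did not overlap in either gene. RPL17 (-0.27 ± 0.25) was the member not called, and RPL36A the member that was higher (2.17 ± 0.32, edgeR FDR 0.00223).

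Between the eIF4A2 and eIF4A1 IPs, edgeR called 0 members lower and 1 higher, where 0.0858% of all genes were lower and 0.973% higher. The member higher was RPL36A, with a log2 difference of 2.88 ± 0.33 (FDR 0.00302) and no overlap. All other members except RPL17 (0.18 ± 0.25) had a negative value, the median being -0.65, and 32 were lower at an unadjusted p below 0.05 (8.41% of all genes; 9.43% higher) and 7 by DESeq2 (0.91%; 3.1% higher). With the replicate block 34 were lower and 1 higher, where 8.7% of all genes were lower and 7.12% higher. RPL36 was the lowest, at 485, 859 and 288 CPM in the eIF4A1 IP and 279, 352 and 140 in the eIF4A2 IP, groups that overlapped in CPM but fell within each replicate number (-1.08 ± 0.44, FDR 0.227, or 0.00275 with the block).

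Between the DDX6 and eIF4A1 IPs, edgeR called 0 members in either direction, where 0.0801% of all genes were higher in DDX6 and 0.0114% lower. All 45 values were positive, with a median of 0.62, and 29 were higher at an unadjusted p below 0.05 (7.67% of all genes; 6.28% lower) and 12 by DESeq2 (1.57%; 0.795% lower). With the replicate block 31 were higher, where 6.08% of all genes were higher and 3.82% lower. None was lower by any of these. RPL7 had the highest value, at 448, 678 and 535 CPM in the eIF4A1 IP and 1040, 1550 and 1070 in the DDX6 IP, which did not overlap (1.14 ± 0.20, FDR 0.0565, or 0.00286 with the block). RPL14 followed (0.97 ± 0.27, FDR 0.174), RPL36A was near the median (0.71 ± 0.32, FDR 0.346), and RPL13 (0.43 ± 0.23) and RPL3 (0.33 ± 0.17) were lowest.

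**Figure D3:**
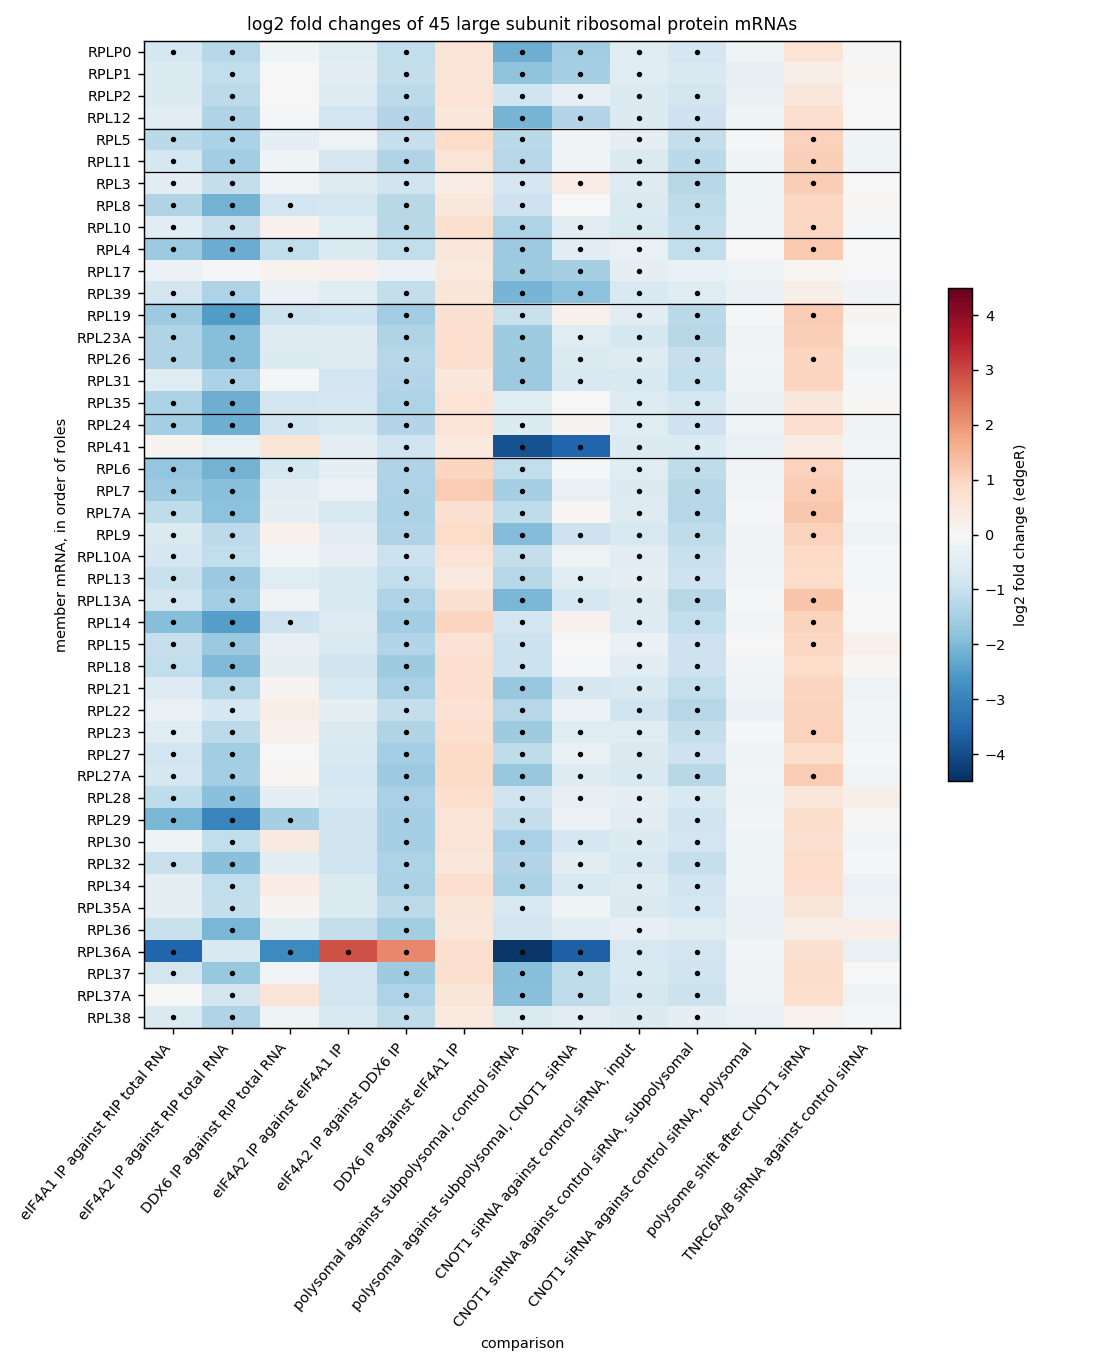
Log2 fold change of each of the 45 members (rows, in order of roles, lines between roles) in the 13 comparisons (columns), blue for lower and red for higher, with a black point where the edgeR FDR was below 0.05. RPL36A is the darkest row in the eIF4A1 and DDX6 IPs, and RPL36A and RPL41 are the darkest in the polysomal against subpolysomal columns.

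In control siRNA cells the members were lower in the polysomal than in the subpolysomal pool. The edgeR test called 43 of 45 lower and 0 higher, where 34.9% of 15500 genes were lower and 30.3% higher, and the median log2 difference was -1.32 against -0.06 over all genes. Leaving out both replicate 3 polysomal libraries gave 43 and 0 again (36.8% and 31% of all genes) and the median was -1.14. DESeq2 likewise called 43 and 0, and 0 were higher at an unadjusted p below 0.05. Because the pools were sequenced separately, a level here is a share of its own pool and not a share of the mRNA in the cell.

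The members differed widely among themselves in this ratio. The RPL36A row may lack reads of shared bases, so its ratio is uncertain. RPL36A had the lowest value, with 154, 153, 116 and 138 CPM in the subpolysomal pool and 7.81, 6.37, 4.63 and 9.45 in the polysomal pool (-4.37 ± 0.24, edgeR FDR 2.84e-07; -4.17 ± 0.17 without both polysomal libraries of replicate 3). RPL41, which bridges to the small subunit and has the shortest coding sequence, stood at 7430, 8870, 8050 and 8970 CPM in the subpolysomal pool and 585, 616, 300 and 781 in the polysomal pool (-3.92 ± 0.30, edgeR FDR 1.44e-06; -3.68 ± 0.18 without). The pools did not come near each other in these genes, and the next lowest members were RPLP0 (-2.18), RPL12 and RPL39 (both -2.08) and RPL13A (-2.05).

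The members with the smallest difference were RPL35 and RPL24. RPL35, at the tunnel exit, stood at 562, 618, 1060 and 1010 CPM in the subpolysomal pool and 772, 734, 325 and 544 in the polysomal pool, which overlapped (-0.53 ± 0.31, edgeR FDR 0.15, or -0.29 ± 0.25 without both polysomal libraries of replicate 3). RPL24, a bridge protein, stood at 1110, 1340, 1230 and 1190 against 872, 979, 542 and 938 CPM, without overlap (-0.61 ± 0.20, edgeR FDR 0.0192; FDR 0.0605 without subpolysomal replicate 2; -0.41 ± 0.12 without the 2 polysomal libraries). By role, the P stalk and base mRNAs had a median of -1.94 (-1.75 without the 2 libraries), led by RPLP0, and the 3 near the peptidyl transferase centre (RPL3 -0.77, RPL8 -0.93, RPL10 -1.40) one of -0.93 (-0.73 without).

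After CNOT1 siRNA the same ratio was closer to 0 for most members. The edgeR test called 27 lower and 1 higher in the polysomal pool, where 34% of 15654 genes were lower and 32.4% higher, with a median of -0.46, and without both polysomal libraries of replicate 3 it called 30 and 0 (36.3% and 34.5%), with the same median. RPL36A (88.2, 88.5, 61.2 and 75.5 CPM subpolysomal, 5.28, 4.49, 8.71 and 7.25 polysomal; -3.67 ± 0.22, edgeR FDR 5.19e-08, or -3.83 ± 0.20 without both) and RPL41 (6030, 6150, 3630 and 5240 against 364, 490, 491 and 490 CPM; -3.58 ± 0.19, edgeR FDR 2.98e-08, or -3.60 ± 0.21 without both) remained far lower in the polysomal pool. RPL39 (-1.83), RPLP0 (-1.57), RPL17 (-1.50), RPLP1 (-1.48) and RPL12 (-1.31) also kept values well below 0.

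RPL3, which lies closest to the catalytic centre, was the member called higher, at 1410, 1380, 1490 and 1590 CPM in the subpolysomal pool and 1740, 1960, 2340 and 1670 in the polysomal pool, which did not overlap (0.33 ± 0.13, edgeR FDR 0.0418). The call was lost without CNOT1 siRNA subpolysomal replicate 1, 2 or 3 (FDR 0.0922, 0.0707 and 0.0642), without polysomal replicate 2 or 3 (0.104 and 0.0904) and with the replicate block (0.0896). RPL14 came next (0.20 ± 0.13, edgeR FDR 0.21), and its pools overlapped.

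**Figure D4:**
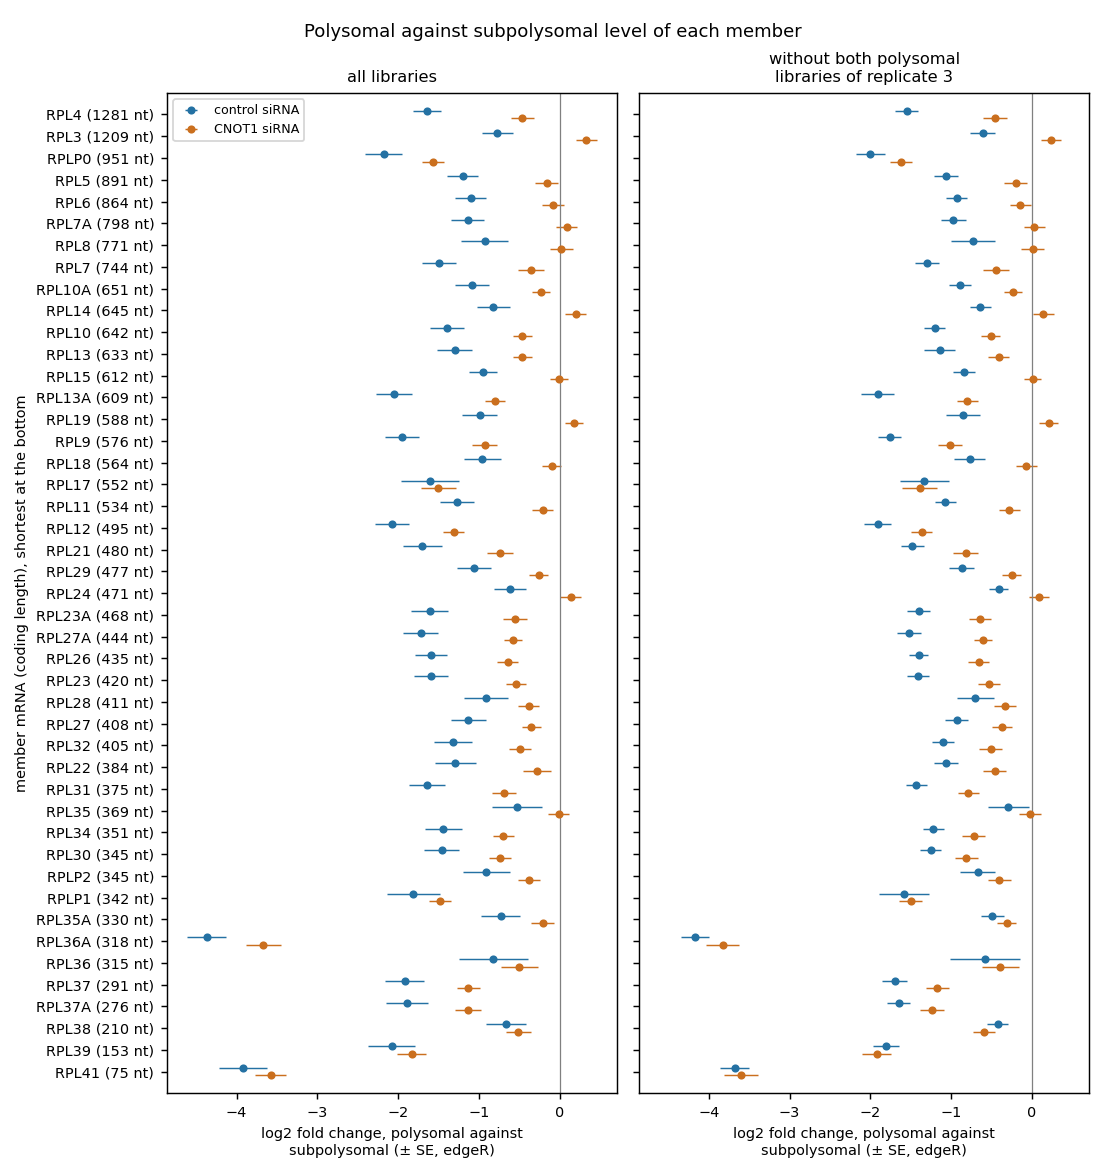
Log2 fold change of the polysomal against the subpolysomal pool (± SE, edgeR) for each member under control siRNA (blue) and CNOT1 siRNA (orange), ordered by coding length with the shortest at the bottom, from all libraries (left) and without both polysomal libraries of replicate 3 (right). RPL36A and RPL41 lie between -3.58 and -4.37 under both siRNAs, and for most members the orange point lies nearer 0 than the blue one.

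After CNOT1 siRNA every member had a lower level in the input RNA. These levels are relative to the other genes of a library, so a change in amount per cell was not measured. All 45 were called lower and 0 higher by edgeR (30% and 30.9% of 15686 genes), by DESeq2 and at an unadjusted p below 0.05, with a median log2 difference of -0.59 against 0.00 over all genes and no overlap between the groups for any member. RPL22, a protein of the subunit surface, was lowest, at 717, 671, 720 and 733 CPM under control siRNA and 411, 375, 380 and 380 under CNOT1 siRNA (-0.88 ± 0.05, edgeR FDR 6.71e-09). RPL37A followed, at 1310, 1130, 1200 and 1320 against 776, 638, 678 and 758 CPM (-0.80 ± 0.07, edgeR FDR 1.75e-07).

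The members least lowered in the input were RPL15, at 1150, 1080, 1200 and 1150 against 928, 927, 891 and 937 CPM (-0.31 ± 0.05, edgeR FDR 6.82e-05), and RPL4, at 2870, 2870, 2930 and 2820 against 2370, 2360, 2240 and 2250 CPM (-0.32 ± 0.05, edgeR FDR 4.43e-05). RPL36A fell with the others, from 20.1, 25.6, 25.4 and 23.0 to 12.5, 14.6, 15.5 and 14.9 CPM (-0.71 ± 0.09, edgeR FDR 6.04e-06). The values of all members thus spanned only -0.88 to -0.31. RPL36AL stood at 161, 156, 135 and 149 against 142, 128, 130 and 135 CPM (-0.17 ± 0.06, edgeR FDR 0.0242).

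In the subpolysomal pool the members fell further. Of the 45, 42 were called lower and 0 higher (15.2% and 12.6% of 15823 genes), with a median of -0.97, and RPLP1, RPL36 and RPL17 were not called. DESeq2 called 43 and 0, and 0 were higher at an unadjusted p below 0.05. With the replicate block all 45 were lower, RPL17 among them (-0.30, FDR 0.00527), where 31.2% of all genes were lower and 27% higher. RPL7A, of the subunit body, stood at 5120, 6020, 6470 and 6180 CPM under control siRNA and 2550, 2360, 2290 and 2360 under CNOT1 siRNA (-1.29 ± 0.13, edgeR FDR 0.000519), and RPL22 at 1600, 2150, 1480 and 1490 against 726, 761, 625 and 571 (-1.29 ± 0.14, edgeR FDR 0.000631). These groups lay apart.

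RPL36A fell by 0.81 ± 0.13 on the log2 scale in the subpolysomal pool (edgeR FDR 0.00235). At the other end, RPL38, which has a coding sequence of 210 nt, stood at 780, 957, 1030 and 856 against 754, 635, 668 and 561 CPM, groups that did not overlap (-0.44 ± 0.14, edgeR FDR 0.0336). Its call was lost in 6 of the 8 fits that left out 1 library, with FDR values from 0.0613 to 0.105 over all the alternatives that lost it. RPL17 stood at 23.7, 21.6, 31.9 and 31.9 against 18.8, 16.1, 23.1 and 29.8 CPM, which overlapped (-0.29 ± 0.22, edgeR FDR 0.353).

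In the polysomal pool no member was called in either direction, and neither was any of the 14474 genes tested (0% and 0%). At an unadjusted p below 0.05 and by DESeq2 the member counts were also 0. The members' median was -0.18. Without both polysomal libraries of replicate 3, 31 members were lower and 0 higher (18.9% and 21.8% of 14514 genes), with a median of -0.40. RPL36A stood at 7.81, 6.37, 4.63 and 9.45 CPM under control siRNA and 5.28, 4.49, 8.71 and 7.25 under CNOT1 siRNA, groups that overlapped (-0.14 ± 0.27, edgeR FDR 0.91; -0.48 ± 0.21, FDR 0.0953 without the 2 libraries).

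The lowest members in the polysomal pool were the P stalk mRNAs RPLP1 (700, 557, 281 and 391 against 378, 397, 402 and 311 CPM; -0.38 ± 0.24, edgeR FDR 0.889) and RPLP2 (633, 572, 254 and 451 against 360, 407, 407 and 344 CPM; -0.34 ± 0.24, edgeR FDR 0.889). In both the groups overlapped through replicate 3 and, for RPLP1, replicate 4 of the control libraries. Without the 2 libraries of replicate 3 they were lower (-0.61 ± 0.18, FDR 0.024, and -0.59 ± 0.12, FDR 0.00478). RPL4 (0.03 ± 0.11) and RPL15 (-0.03 ± 0.11) were nearest to no difference, and stayed there without them (-0.03 ± 0.10 and -0.10 ± 0.08).

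The polysome shift, the polysomal against subpolysomal log2 difference under CNOT1 siRNA minus that under control siRNA, was positive for all 45 members with every library in the fit. The interaction test called 16 higher and 0 lower, where 0.576% of 16506 genes were higher and 0.376% lower, and the median was 0.84 against 0.06 over all genes. Without both polysomal libraries of replicate 3 it called 23 and 0 (5.47% and 3.97% of 16805 genes), with a median of 0.66, and 42 values were positive and 3 negative (RPL38, RPL39 at -0.08 and RPL17). DESeq2 called 18 and 0 (1.47% and 1.65% of all genes), and 35 higher and 0 lower had an unadjusted p below 0.05 (8.9% and 6.19%). The largest shifts were those of RPL13A, a protein known for a role outside the ribosome in interferon responses, at 1.24 ± 0.22 (edgeR FDR 0.0187), and RPL7A at 1.22 ± 0.21 (edgeR FDR 0.0159).

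The libraries of RPL13A show where this value came from. Its subpolysomal levels were 2780, 3300, 4630 and 4140 CPM under control siRNA and 1550, 1350, 1580 and 1660 under CNOT1 siRNA, and its polysomal levels 1060, 1030, 725 and 956 against 854, 995, 937 and 883. RPL7A likewise differed in the subpolysomal pool, while its polysomal levels were 2860, 3270, 2050 and 3160 against 2170, 2650, 3050 and 2740 CPM. The subpolysomal groups lay apart and the polysomal groups overlapped in both genes. In RPL7A the polysomal overlap came only through the libraries of replicate 3, and the other polysomal libraries were lower under CNOT1 siRNA. RPL36A had a shift of 0.70 ± 0.30 (edgeR FDR 0.267; 0.37 ± 0.26 without both libraries), RPL38 of 0.16 ± 0.29 (edgeR FDR 0.834; -0.16 ± 0.18 without) and RPL17 of 0.09 ± 0.43 (edgeR FDR 0.946; -0.06 ± 0.39 without).

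The number of members called for the shift moved with the libraries and the fit. The share of all genes called was not counted in the fits without 1 library. There a change in the members cannot be told from a change over all genes. Leaving out 1 library gave 3 (CNOT1 siRNA subpolysomal replicate 3 or polysomal replicate 2), 4 (control siRNA subpolysomal or polysomal replicate 4, or CNOT1 siRNA subpolysomal replicate 2), 5 (CNOT1 siRNA polysomal replicate 4), 7 (CNOT1 siRNA subpolysomal replicate 4 or control siRNA polysomal replicate 1), 8 (control siRNA subpolysomal replicate 1 or CNOT1 siRNA polysomal replicate 1), 9 (control siRNA subpolysomal replicate 2) or 10 (CNOT1 siRNA polysomal replicate 3). RLE size factors gave 7 (0.279% of all genes higher, 0.376% lower), the replicate block 10 (0.418% and 0.285%) and a fit of all gradient libraries 31 (3.26% and 2.4%).

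Members with longer coding sequences had larger shifts. Across the 45 members, which share libraries, Pearson's r of the shift with log2 coding length was 0.63 and Spearman's rho 0.66, and 0.69 and 0.73 without both polysomal libraries of replicate 3. Leaving out RPL36A and RPL41 gave 0.61 and 0.63. Of the 14 members of 600 nt or more, 10 were called, with a median of 1.02, of the 26 from 300 nt up to 600 nt 6, with a median of 0.79, and of the 5 under 300 nt (RPL41, RPL39, RPL38, RPL37A, RPL37) 0, with a median of 0.35. Without both polysomal libraries of replicate 3 these classes had 12, 11 and 0 called, with medians of 0.84, 0.59 and 0.10. RPLP0 (951 nt) had a shift of 0.60 ± 0.23, the lowest of the longest class. The subpolysomal difference between the siRNAs, which enters the shift, had an r of -0.55 with length. That of the polysomal difference was not computed. The difference in the input, which does not enter the shift, had an r of 0.38. The ratio of the pools had an r with length of 0.39 under control siRNA and of 0.58 under CNOT1 siRNA. Without RPL36A and RPL41 these were 0.07 and 0.42.

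**Figure D5:**
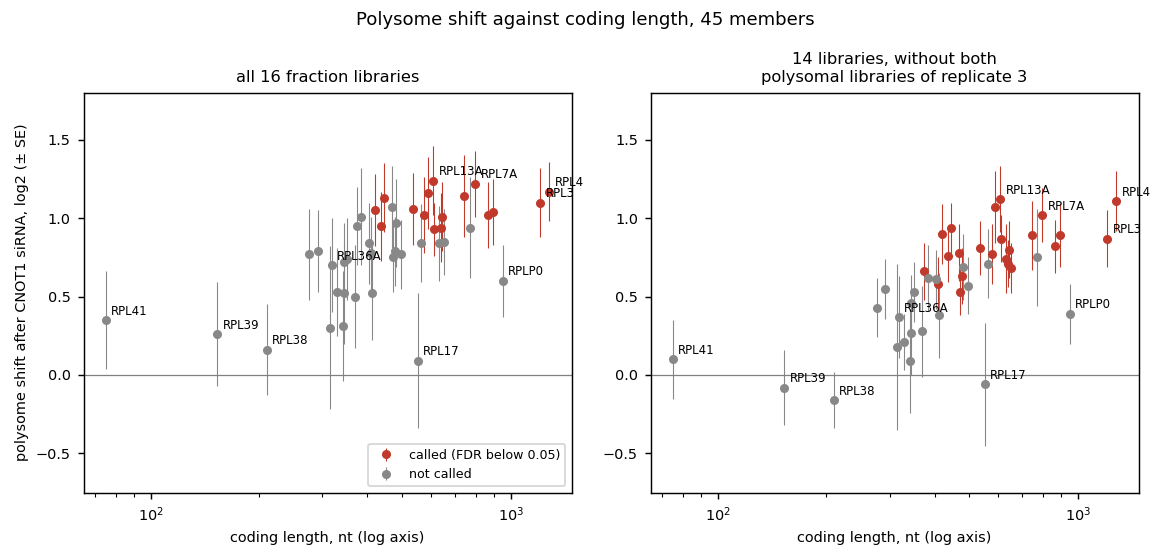
Polysome shift after CNOT1 siRNA (log2, ± SE) against coding length (nt, log axis) for the 45 members, red where the edgeR FDR was below 0.05, from all 16 fraction libraries (left) and without both polysomal libraries of replicate 3 (right). The members under 300 nt lie at or below 0.79 and none is red, and most members of 600 nt or more are red.

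After TNRC6A and TNRC6B siRNA no member was called in either direction by edgeR or DESeq2, none passed an unadjusted p of 0.05, and no gene of the 14064 tested was called (0% and 0%). With the replicate number as a block, which the sources do not give as a pairing, 3.7% of all genes were higher and 1.73% lower, and again 0 members. TNRC6A itself was lower by a log2 difference of -1.80 ± 0.29 and TNRC6B by -1.68 ± 0.28, neither of which was called with 2 libraries a group. The members' median was -0.05, with a range from -0.34 for RPL36A (29.0 and 45.4 CPM under control siRNA, 21.7 and 36.9 under TNRC6A/B siRNA; ± 0.39, FDR 1) to 0.29 for RPL36 (248 and 82.6 against 258 and 148 CPM; ± 0.59, FDR 1). RPL28 (0.25 ± 0.48) was the second highest and RPL34 (-0.25 ± 0.23) the second lowest. In each of these genes the groups overlapped.

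Here the members' values followed their base composition. Coding GC ran from 42.5% to 62.2% over the members, and its Pearson's r with the log2 difference after TNRC6A/B siRNA was 0.69 (Spearman's rho 0.73), while r with the spread within groups (SD of log2 CPM, 0.04 for RPL9 to 0.89 for RPL36) was 0.67. RPL13, the member of highest GC (62.2%), stood at 934 and 347 CPM in the control siRNA libraries and at 831 and 414 in the TNRC6A/B siRNA libraries. Its replicates thus differed more than its groups. In the other comparisons r with GC was between -0.31 and 0.38. Within the RIP and the fraction groups RPL36 again spread most (SD 0.67 and 0.63), and in the input RPL34 did (SD 0.19), where the median SD was 0.08.

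Other mRNAs of the translation machinery gave a frame for these values. Over all genes, 26.5%, 25.8% and 23.3% were lower in the eIF4A1, eIF4A2 and DDX6 IPs, and 30% in the input after CNOT1 siRNA. A positive shift was called for 0.576% of all genes, or 5.47% without both polysomal libraries of replicate 3. Of the 32 small subunit ribosomal protein mRNAs, 16 were called lower in the eIF4A1 IP, 25 in the eIF4A2 IP and 3 in the DDX6 IP, with medians of -0.60, -1.23 and 0.01. All 31 of those tested were lower in the input after CNOT1 siRNA (median -0.64), and 9 of 32 had a positive shift called (median 0.87), or 16 (median 0.65) without both polysomal libraries of replicate 3. Of 16 tested non-ribosomal TOP mRNAs, 15 were lower in each of the eIF4A1 and eIF4A2 IPs and 11 in the DDX6 IP, 13 were lower in the input after CNOT1 siRNA (median -0.34), and 7 had a positive shift called (median 0.89), or 10 (0.86) without the 2 libraries. PABPC1, which codes for the cytoplasmic poly(A)-binding protein, was the highest of that list in all 3 IPs against total RNA (1.55, 1.14 and 2.46).

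The assembly factors of the large subunit, whose mRNAs are not TOP mRNAs as a class, had other values in the gradients. Of 30 tested, 16 were higher and 2 lower in the polysomal pool of control siRNA cells (median 0.44; 17 and 2, median 0.43, without the 2 libraries), 13 were higher and 4 lower in the input after CNOT1 siRNA (median 0.12), and 0 had a shift called by edgeR, while an unadjusted p below 0.05 was reached by 3 higher and 1 lower (median 0.24). Without both polysomal libraries of replicate 3, 7 had a higher shift called and 0 a lower one (median 0.35), against 5.47% and 3.97% of all genes. Over all genes, 30.3% were higher and 34.9% lower in the control polysomal pool, or 31% and 36.8% without both. In the input 30.9% were higher and 30% lower. A shift at an unadjusted p below 0.05 was reached by 8.9% higher and 6.19% lower. In the IPs 23, 26 and 21 of the 30 assembly factors were lower than total RNA for eIF4A1, eIF4A2 and DDX6. The members had 32, 42 and 8 of 45 lower, and all genes 26.5%, 25.8% and 23.3%. The paralogues of the members also differed from them: RPL36AL stood at 85.9, 102, 99.6 and 74.1 CPM in the subpolysomal and 237, 289, 188 and 247 in the polysomal pool of control siRNA cells (1.35 ± 0.17, edgeR FDR 4.4e-05), where RPL36A had its lowest value.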

How the data were processed

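The authors sequenced TruSeq stranded libraries, ran bcl2fastq (version 2.0 per the labels), aligned reads to hg19 with TopHat2 and deposited raw gene counts from HTSeq; the strand setting and annotation release are not given in the sources used here. A merged table was not used. The counts were tested with edgeR 4.0.16 in R 4.3.3 (TMM, low-count filter, quasi-likelihood F-test, FDR below 0.05 over all genes). RIP comparisons shared 1 fit of 12 libraries, gradient comparisons used the compared groups only. Depth limits RPL17 and RPL36A most. Members and gene lists were chosen with earlier results of these data known. In each comparison RPL36A and the 2 highest and 2 lowest members have full statistics. The alternatives tried were a replicate block, DESeq2 1.42.0, RLE scaling, keeping all low-count genes, other sets of libraries and leaving out each library. Deviations of same-numbered libraries correlated above 0.1 in 18 of 18 RIP pairs (0.184 to 0.782). They also did so in the input (0.203 to 0.383) and subpolysomal (0.604 to 0.750) pairs. These were taken as paired, but only in the replicate block, and the main fits used group means. Same-numbered polysomal libraries of the control and CNOT1 siRNAs correlated at -0.573 to 0.108. Subpolysomal and polysomal libraries of the same siRNA and number did so at -0.473 to 0.19. These values do not show a pairing, so block results for the pool ratios, the polysomal pool and the shift rest on replicate numbers alone. Libraries of unlike number also correlated, up to 0.518 in the subpolysomal pairs. Total RNA replicate 1 correlated with unlike numbers at least as strongly, in the eIF4A1 IP (0.262 same, 0.274 unlike) and the DDX6 IP (0.226 and 0.229). RIP total RNA replicate 3 was numbered by its title, while its description gives replicate 2, a doubt that bears on the block. Coding lengths are those of GENCODE v44 on GRCh37. The procedure was tested on data simulated for some of the comparisons, with a fixed spread and independent libraries. That test therefore does not cover paired libraries or libraries that oppose their labels.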

Additional observations from a re-analysis of the deposited data

Results flagged for a closer look

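Among 150 groups of 4 libraries (the members with full statistics in 6 gradient groups), 5 held a library far from the other 3 by Dixon's criterion, and chance gives about 1 in 20. RPL22 stood at 411 CPM in CNOT1 siRNA input replicate 1 against 375 to 380 in the others. RPL34 stood at 1350 CPM in control siRNA subpolysomal replicate 2 against 1020 to 1050. In CNOT1 siRNA polysomal replicate 1, RPL34 stood at 310 against 391 to 402 CPM and RPL41 at 364 against 490 to 491. RPL19 stood at 1350 CPM in CNOT1 siRNA polysomal replicate 2 against 1180 to 1200.

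The difference between the pools differed between the siRNAs by the interaction test for RPL13A (1.24) and RPL7A (1.22), which have the largest polysome shifts of the members.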

How the results depend on the processing

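The members' median log2 difference moved by less than the spread between replicates in all 164 alternatives tried for it, though without 1 library it ran from -0.45 to -0.09 in the DDX6 IP (-0.21 with all), from -0.33 to -0.11 in the polysomal pool after CNOT1 siRNA (-0.18; -0.40 without both libraries of replicate 3) and from -0.15 to 0.02 after TNRC6A/B siRNA (-0.05), and the counts of called members stayed within 1.5 times the reported count in 288 of 328. With the replicate block the DDX6 IP had 3 members higher and 20 lower than total RNA, the eIF4A2 IP 34 lower than the eIF4A1 IP, and the DDX6 IP 31 higher than the eIF4A1 IP, while the polysomal pool had 0 higher under CNOT1 siRNA and the polysome shift was called for 10. The block moved no other count over all 45 members by more than 1.5 times, while the P stalk group in the eIF4A1 IP went from 1 to 4 lower. In the TNRC6 groups, whose numbers were not taken as paired, it gave 0 member calls and, over all genes, 520 higher and 243 lower against 0 and 0. DESeq2 gave 1 higher in the DDX6 IP, 7 lower between the eIF4A IPs and 12 higher between the DDX6 and eIF4A1 IPs, and no filter gave 2, 26 and 15 for the same. The shares of all genes called with no filter were not counted. A fit of only the compared libraries gave 1 higher in the DDX6 IP. For the shift, RLE size factors gave 7 and all 24 gradient libraries in 1 fit gave 31.

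Leaving out 1 library at a time, or both polysomal libraries of replicate 3, gave 0 to 1 members higher and 5 to 16 lower in the DDX6 IP, 0 to 1 higher in the polysomal pool under CNOT1 siRNA, 0 to 31 lower in the polysomal pool after CNOT1 siRNA (31 without both) and 3 to 23 with a shift called. These fits also turned signs near 0. In the eIF4A1 IP the log2 difference ran from -0.13 to 0.24 for RPL41 and from -0.20 to 0.15 for RPL37A. RPL17 ran from -0.03 to 0.50 between the eIF4A IPs, from -0.43 to 0.01 between the eIF4A2 and DDX6 IPs and from -0.15 to 0.51 for the shift (-0.03 with no filter), and the shift of RPL38 from -0.16 to 0.27. After CNOT1 siRNA in the polysomal pool RPL4 ran from -0.03 to 0.09 and RPL36A from -0.48 to 0.03. After TNRC6A/B siRNA RPL36 ran from -0.24 to 1.29, RPL28 from -0.20 to 1.01 and RPL36A from -0.77 to 0.07. Where a fit left 1 library in a group, that library was assumed to vary like the others. The causes were not tested.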
